A study of Mus musculus with 6 samples.

Results

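The genes described here are 10 transcription factors of the AP-1 and immediate early group, Fos, Fosb, Fosl1, Fosl2, Jun, Junb, Jund, Atf3, Egr1 and Maff, chosen by gene symbol among 55364 genes listed in the counts. RNA of primary mouse lung fibroblasts (LFs) kept with TGFβ (10 ng/ml, 24 h, serum-free medium) was sequenced by Quant-seq, which reads the 3' end of polyadenylated transcripts. There were 3 libraries of wt LFs and 3 libraries labelled TKS5 KO, and no library without TGFβ. The study's methods describe LFs of C57Bl6/J mice aged 8 to 10 weeks, digested from the lung and used at passage 2 to 3. They give the mutants as heterozygous for Sh3pxd2a, the gene of the podosome scaffold Tks5, since homozygous loss was not viable. The mutants carry alleles from which exon 11 was removed by Cre recombination, and the sources used here do not say which allele was sequenced or whether replicates came from separate animals. The p-values therefore rest on the spread between these libraries, which may be technical.

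AP-1 is a dimer of bZIP proteins, held together by a leucine zipper. In AP-1, Fos proteins pair with Jun proteins, whereas Jun proteins can also pair with each other. These dimers bind TGAGTCA or the cyclic AMP response element TGACGTCA. Most of these genes are immediate early genes, transcribed within minutes of a growth factor, serum or stress signal through MAP kinases and serum response factor, and their mRNAs are short-lived. In fibroblasts, AP-1 and Egr1 take part in the transcription of matrix and protease genes, and Junb is a known target of TGFβ signalling.

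The 6 libraries held between 1344507 and 2369882 counts. CPM are counts scaled to a common library size, corrected by the TMM method. Sh3pxd2a itself averaged 113 ± 16.5 CPM in the wt group and 138 ± 11.1 CPM in the TKS5 KO group (SD, n = 3 each), a log2 fold change of 0.29 (95% interval -0.13 to 0.71, adjusted p = 0.249). It was called higher with a correction for transcript length (1.00, adjusted p = 5.19e-04). Reads from the transcript's end lie outside exon 11, and whether loss of that exon alters them was not tested. The study reports reduced Tks5 mRNA in heterozygous LFs by quantitative PCR, a reduction that these counts do not show. The genotype was not checked with these counts. All 10 fibroblast markers were tested, with 1 lower and 4 higher in the TKS5 KO libraries, and summed to 13940 to 15775 CPM for wt and 17402 to 19662 CPM for TKS5 KO. Smooth muscle and pericyte markers summed to 5009 to 5997 and 6350 to 7283 CPM, also without overlap, while 5 of 9 tested markers were lower, 2 were higher and their median log2 fold change was -0.996. Epithelial markers overlapped, at 22.5 to 54.9 and 29.2 to 62.0 CPM, with 1 of 2 tested markers lower and 1 higher. Of 18 macrophage markers, 13 were tested and 7 were lower in the TKS5 KO libraries. Their summed level was 490, 416 and 2668 CPM for wt replicates 1, 2 and 3 and 148 to 162 CPM for TKS5 KO, and Ptprc, Adgre1 and Marco were at 0 in every TKS5 KO library. Endothelial markers summed to 125 to 164 CPM in wt LFs and 45.6 to 60.9 CPM in the TKS5 KO libraries, with 4 of 5 tested markers lower and Pecam1 and Tek at 0 in every TKS5 KO library. Mesothelial markers summed to 37.5 to 50.8 and 5.63 to 14.3 CPM, with 3 of 3 tested markers lower and Krt8 at 0 in every TKS5 KO library. By the test described below, 22.1% of all genes tested were lower and 22.8% higher. In bulk RNA, fewer cells of a type and less RNA per cell cannot be told apart, and the part of these cells in the levels below was not tested.

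Of the 10 genes, 7 had enough counts to be tested, and Fos, Fosb and Atf3 did not. A gene counted as called if it passed an adjusted p of 0.05 in edgeR's quasi-likelihood test and changed 1.2-fold or more. Junb was lower in the TKS5 KO libraries and was the 1 member called. Among all 10346 genes tested, 44.9% were called, 22.1% lower and 22.8% higher. The median absolute log2 fold change was 0.41 over the 7 tested members and 0.65 over all genes tested. The signed median was -0.41 over the members and -0.046 over all genes, with 5 of the 7 estimates below 0 and 2 above. With a correction for transcript GC content, chosen after seeing the data, the 7 estimates lay between -0.35 (Maff) and 0.60 (Jun). The middle estimate was then -0.067 (Jund), against a median of -0.0030 over all genes. The CPM of the groups did not overlap for Jun, Junb and Maff, 3 of 7 tested members, against 53.8% of all genes tested.

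**Figure D1:**
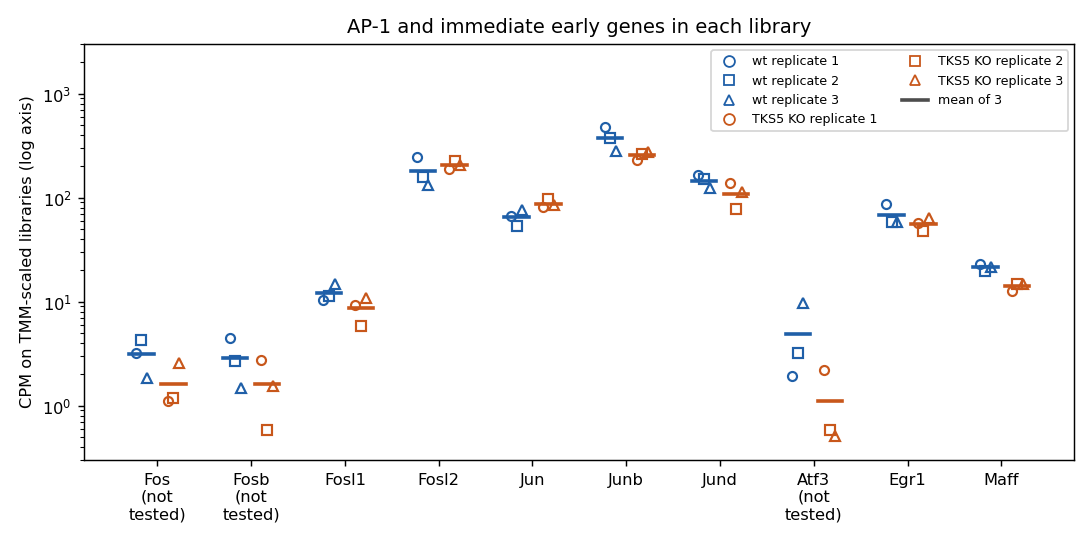
CPM on TMM-scaled libraries (log axis) of the 10 genes in each of 3 wt libraries (blue) and 3 libraries labelled TKS5 KO (orange), with symbols for the replicate number and a bar at the mean of 3. Junb stood at 281 to 478 CPM in wt LFs and 229 to 273 in the TKS5 KO libraries, Maff at 19.8 to 23.2 and 12.6 to 14.8, and Jun at 53.5 to 76.8 and 80.7 to 96.6, without overlap of the groups.

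Junb, Jun and Jund are the Jun family, the partners of Fos proteins in AP-1. Each is encoded by 1 exon. Junb, the weaker activator of the family and an antagonist of Jun in many settings, is a reverse-strand gene of chromosome 8 (GRCm38, 84974484 to 84978718) (ENSMUSG00000052837). Its counts were 742, 692 and 758 in wt replicates 1, 2 and 3, against 418, 447 and 533 in those of TKS5 KO, or 478, 370 and 281 CPM against 229, 262 and 273 CPM. Every TKS5 KO library was below every wt library, although wt replicate 3 stood only a little above TKS5 KO replicate 3. The means were 376 ± 98.4 and 255 ± 22.5 CPM (SD, n = 3 each), 1.48-fold lower in the TKS5 KO libraries. The log2 fold change was -0.56 (standard error 0.22, 95% interval -1.01 to -0.12, adjusted p = 0.0377 by edgeR). Permuting the libraries (exact, two-sided) gave p = 0.1, the smallest that 3 libraries against 3 allow.

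The call of Junb depended on the libraries and the scaling. Leaving out wt replicate 1 ended it (-0.36, adjusted p = 0.234), as did leaving out wt replicate 2 (-0.58, adjusted p = 0.0891) or TKS5 KO replicate 1 (-0.44, adjusted p = 0.139), replicate 2 (-0.55, adjusted p = 0.0818) or replicate 3 (-0.58, adjusted p = 0.0797), and it held without wt replicate 3, the library with the highest macrophage marker sum (-0.74, adjusted p = 0.0109). It was also lost with DESeq2 (-0.53, adjusted p = 0.0522), with RLE scaling (-0.53, adjusted p = 0.0534) and with a loess correction of each library for GC content, chosen after seeing the data (-0.18, adjusted p = 0.521). The longest coding transcript of Junb is 62.6% GC, above 98.9% of the genes tested. The estimate was farther from 0, and called, in the authors' normalized counts (-1.01, adjusted p = 9.99e-04 by limma) and with library totals (-0.99, adjusted p = 7.27e-04), and it remained below 0 in all 20 alternatives. A second annotated transcript of Junb overlaps the end of Prdx2 on the opposite strand by 351 bases, with 0 of them in the 3'UTR of the longest coding transcript. Prdx2, a peroxiredoxin, was higher in the TKS5 KO libraries by 1.23 on the log2 scale. Whether the counting kept to a strand is not given in the sources used here, so reads of the overlap cannot be assigned to either gene.

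Jun, the family's strong activator and the substrate of the JNK kinases, lies on chromosome 4 from 95049034 to 95052222 on the reverse strand (ENSMUSG00000052684). Its counts were 104, 100 and 207 for wt and 147, 165 and 167 for TKS5 KO. On the CPM scale these were 66.9, 53.5 and 76.8 against 80.7, 96.6 and 85.5. All TKS5 KO libraries were above all wt libraries, the opposite order to Junb. The log2 fold change was 0.41 (standard error 0.21, 95% interval -0.03 to 0.85) and was not called (adjusted p = 0.125 by edgeR, exact two-sided permutation p = 0.1). It was called with the GC correction (0.60, adjusted p = 0.0276), and its estimate fell to -0.017 when libraries were scaled by their totals alone. That scaling moved the median of all genes to -0.47 and gave 3944 genes lower and 1362 higher, against 2286 and 2356 with TMM.

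Jund, which is more steadily expressed than its relatives in many resting cells, lies on chromosome 8 from 70698949 to 70700616 on the forward strand (ENSMUSG00000071076). Its CPM were 164, 151 and 122 in wt LFs and 137, 78.4 and 113 in the TKS5 KO libraries, so that the groups overlapped. The log2 fold change was -0.41 (95% interval -0.87 to 0.05, adjusted p = 0.140 by edgeR). Its longest coding transcript is 67.1% GC, above 99.9% of the genes tested, and the GC correction moved the estimate to -0.067. It was called lower in 4 of 20 alternatives: library totals, the authors' normalized counts, and the length correction with and without a replicate block.

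The opposite estimates of Jun and Junb were compared within each library, where scaling has no effect. The log2 ratio of Jun to Junb counts was -2.83, -2.78 and -1.87 for wt replicates 1, 2 and 3 and -1.50, -1.44 and -1.67 for those of TKS5 KO. The ratio was higher in every TKS5 KO library than in every wt library, with wt replicate 3 nearest to them. This order, and the permutation p that comes with it, follow from the opposite separations of Jun and Junb given above. They are not further evidence. The mean difference was 0.96 on the log2 scale, a ratio 1.94-fold higher, with an exact two-sided permutation p of 0.1 (adjusted p = 0.333 over 10 ratios). Leaving out single libraries gave 0.79 to 1.27. The difference between the fitted log2 fold changes of Jun and Junb was 0.97 and ran from 0.77 with the GC correction and a replicate block to 1.49 in the authors' normalized counts. As a share of the reads of the 3 Jun family genes, Jun made up 9.45%, 9.31% and 16.0% in wt LFs and 18.0%, 22.1% and 18.2% in the TKS5 KO libraries. Jun to Jund differed by 0.86 (permutation p = 0.2, exact) and Junb to Jund by -0.094 (permutation p = 0.8, exact), both with overlapping groups.

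**Figure D2:**
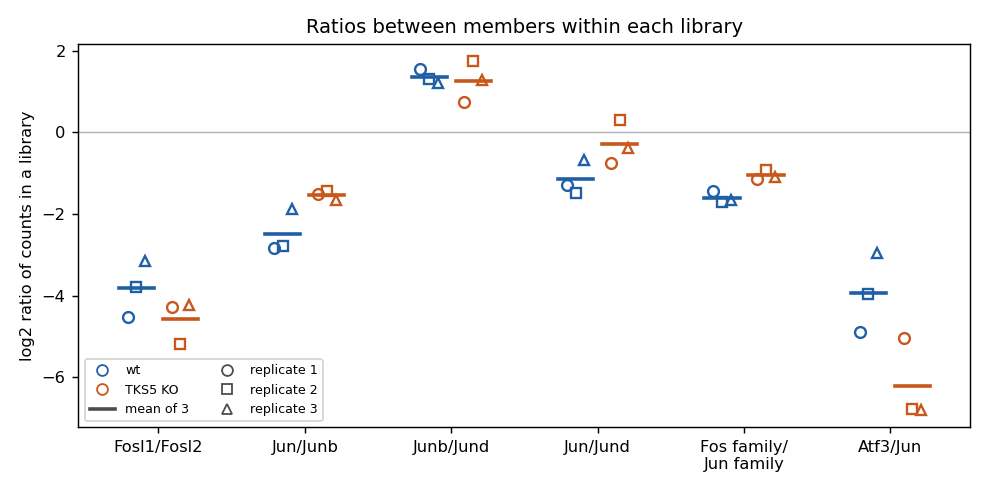
Log2 ratio of the counts of paired genes within each library (y axis), for 6 of the 10 ratios computed, with wt libraries in blue, libraries labelled TKS5 KO in orange, and a bar at the mean of 3. The groups did not overlap for Jun to Junb, for the summed Fos family to the summed Jun family and for Atf3 to Jun. Atf3 was too low to be tested. At the nearest pair, wt replicate 1 and TKS5 KO replicate 1, its ratios to Jun were -4.90 and -5.03, from 3 and 4 counts of Atf3.

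Most reads of the Fos family came from Fosl2. Fosl2 encodes Fra-2, a Fos protein without the strong activation domain of Fos, whose overexpression in mice leads to lung fibrosis. It lies on chromosome 5 from 32135801 to 32157842 on the forward strand (ENSMUSG00000029135). Its CPM were 245, 158 and 132 for wt replicates 1, 2 and 3 and 188, 223 and 206 for those of TKS5 KO. The wt libraries spread wider than the TKS5 KO libraries and enclosed them. The log2 fold change was 0.21 (standard error 0.22, 95% interval -0.25 to 0.67, adjusted p = 0.464 by edgeR), so that a change above 1.60-fold in either direction lies outside the interval. With a correction for transcript length it was called higher (0.70, adjusted p = 0.0158), and with library totals alone the estimate was -0.22. The longest coding transcript of Fosl2 has 6537 bases, against a median of 3204 for the genes tested.

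Fosl1, which encodes the related Fra-1 and is itself switched on by AP-1, lies on chromosome 19 from 5447547 to 5455946 on the forward strand (ENSMUSG00000024912). Counts were 16, 21 and 40 for wt and 17, 10 and 21 for TKS5 KO, or 10.3, 11.2 and 14.8 CPM against 9.33, 5.85 and 10.7 CPM. The groups overlapped, and the log2 fold change of -0.50 was not called (95% interval -1.26 to 0.26, adjusted p = 0.281 by edgeR). The 3'UTR of Fosl1, 638 bases long in its longest coding transcript, lies with its 50 flanking bases inside Ccdc85b on the opposite strand, so without strand the reads of these genes cannot be told apart. Ccdc85b had a log2 fold change of 0.15 (adjusted p = 0.644).

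Fos and Fosb, the classical partners of Jun in the early response, were close to the limit of detection. Fos, on chromosome 12 from 85473890 to 85477273 on the forward strand (ENSMUSG00000021250), held 5, 8 and 5 counts for wt and 2, 2 and 5 for TKS5 KO. Fosb, a reverse-strand gene of chromosome 7 (19302696 to 19310051, ENSMUSG00000003545), held 7, 5 and 4 counts and 5, 1 and 3. These came to 3.12 ± 1.22 against 1.61 ± 0.823 CPM for Fos and 2.89 ± 1.52 against 1.62 ± 1.08 CPM for Fosb (SD, n = 3). Both sets of libraries overlapped, exact two-sided permutation tests gave p = 0.2 and p = 0.5, and with no filter on low counts the log2 fold changes were -0.89 and -0.75 (adjusted p = 0.502 and 0.514 by edgeR). A difference was not detectable at this depth.

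Summed over the families, the Fos genes came to 196 ± 58.7 CPM in wt LFs and 217 ± 15.1 in the TKS5 KO libraries, and the Jun genes to 588 ± 115 and 452 ± 17.5 CPM (SD, n = 3). The Jun family sum was 709, 575 and 480 CPM in wt LFs and 447, 437 and 471 in the TKS5 KO libraries, a separation that narrowed to 480 against 471 at its nearest pair. The log2 ratio of the Fos family to the Jun family was -1.60 ± 0.15 and -1.06 ± 0.12 (SD, n = 3), 0.55 higher in the TKS5 KO libraries. The groups did not overlap (exact two-sided permutation p = 0.1, adjusted p = 0.333), and the difference stayed between 0.48 and 0.63 as single libraries were left out. Fosl2 made up 90.2% of Fos family reads in wt LFs and 94.5% in the TKS5 KO libraries on average, and Fos 1.63% and 0.738%. Reads from transcript ends were not scaled to length, and these shares are of reads.

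**Figure D3:**
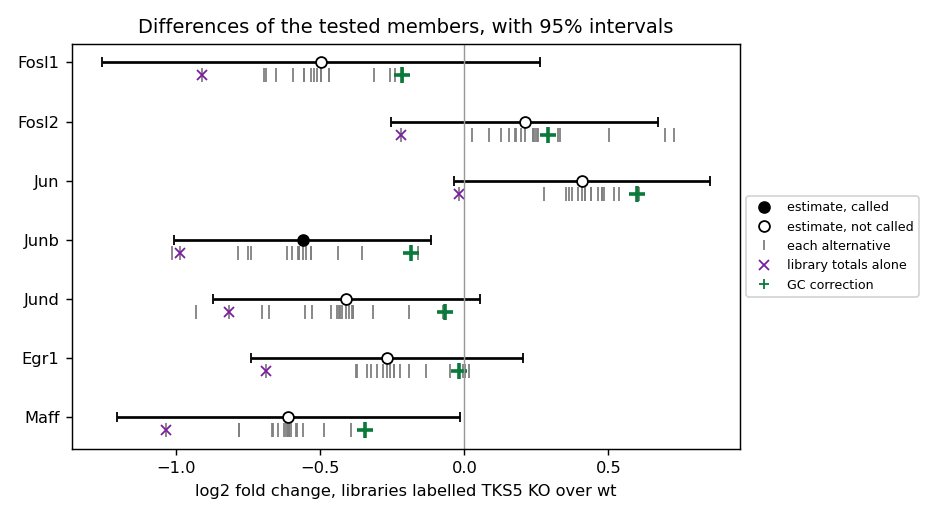
Log2 fold change (x axis) of the 7 tested genes in the libraries labelled TKS5 KO over wt, with 95% intervals (circles and bars, filled where called), and below each the 20 alternative estimates as ticks, with library totals alone as a purple cross and the GC correction as a green plus. The interval excluded 0 for Junb (-1.01 to -0.12) and Maff (-1.21 to -0.01) and included it for the other 5.

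Maff is a small Maf protein, a bZIP factor without an activation domain that pairs with itself or with larger factors such as Nrf2. It lies on chromosome 15 from 79346621 to 79359076 on the forward strand (ENSMUSG00000042622). Counts were 36, 37 and 58 for wt and 23, 25 and 29 for TKS5 KO, or 23.2, 19.8 and 21.5 CPM against 12.6, 14.6 and 14.8 CPM. The groups did not overlap, with means of 21.5 ± 1.69 and 14.0 ± 1.22 CPM (SD, n = 3). The log2 fold change of -0.61 was the farthest from 0 among the 7 tested members, and 47.4% of all genes tested had a smaller change. At these low counts its standard error was 0.29 and it was not called (95% interval -1.21 to -0.01, adjusted p = 0.0887 by edgeR, unadjusted p = 0.0452, exact two-sided permutation p = 0.1). Its estimate remained below 0 in all 20 alternatives, from -1.03 to -0.35, and it was called in 3 of them, with library totals alone and with the length correction with and without a replicate block.

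Atf3, a stress-induced bZIP factor that pairs with Jun or acts as a repressor by itself, held 3, 6 and 26 counts for wt replicates 1, 2 and 3 against 4, 1 and 1 for TKS5 KO. On the CPM scale these were 1.93, 3.21 and 9.64 against 2.19, 0.585 and 0.512. Wt replicate 3 held most of the reads, and wt replicate 1 lay below TKS5 KO replicate 1. The gene lies on chromosome 1 from 191170296 to 191218039 on the reverse strand (ENSMUSG00000026628), and it was too low to be tested with the filter. With no filter it was called lower (-2.21, standard error 0.74, adjusted p = 0.0157 by edgeR), and without wt replicate 3, a combination chosen after seeing the data, it was not (-1.21, adjusted p = 0.531). Wt replicate 3 is also the library with 2668 CPM of macrophage markers. The part of macrophage RNA in the Atf3 reads was not tested.

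**Figure D4:**
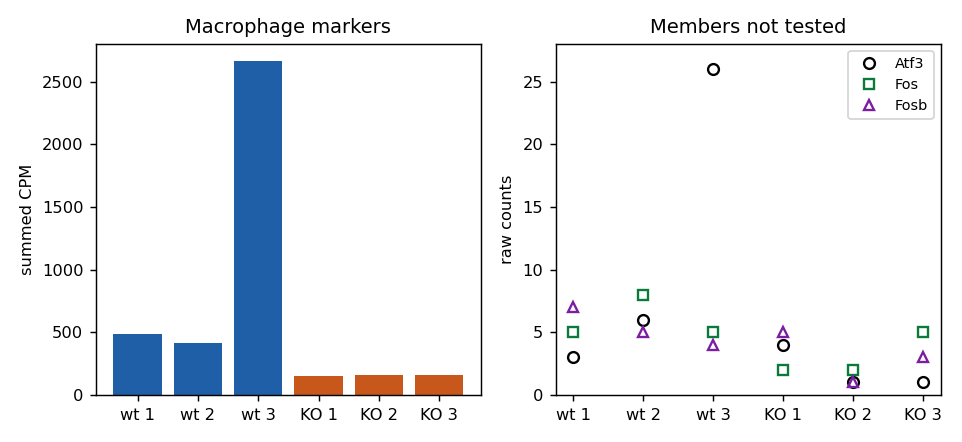
Left, summed CPM of 18 macrophage markers in each library. Right, raw counts of Atf3, Fos and Fosb, the members too low to be tested, in the same libraries. Wt replicate 3 stood apart on both sides, at 2668 CPM of the markers and 26 counts of Atf3.

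Egr1, a zinc finger factor outside the bZIP family that binds GCGTGGGCG and is induced by TGFβ in fibroblasts, held 136, 108 and 156 counts for wt and 103, 81 and 124 for TKS5 KO. These were 87.5, 57.8 and 57.8 CPM against 56.5, 47.4 and 63.5 CPM. The groups overlapped, and wt replicate 1 alone stood above the rest. The log2 fold change was -0.27 (95% interval -0.74 to 0.20, adjusted p = 0.353 by edgeR), and with the length correction it was 0.0032.

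The mRNAs of immediate early genes are known for AU-rich elements, bound by decay factors of the Zfp36 family. The core ATTTA was found in the last 300 bases of the longest coding transcript in 8 of the 10 members, against 41.4% of 9453 tested genes with such a window, and Fos and Maff held 4 copies or more, as did 1.2% of the tested genes. The extended element TTATTTATT was found in this window in Fos and Maff, against 2.12% of tested genes, and farther from the end in Fosl2. These sites are shown because the element is a feature that several members share and the rule did not use, with the element in capitals and the 5' end first:

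Fos, 161 bases from the transcript end: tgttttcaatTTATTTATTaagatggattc

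Fosl2, 962 bases from the transcript end: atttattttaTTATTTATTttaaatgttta

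Maff, 289 bases from the transcript end: ttccacactcTTATTTATTgcacgaatcta

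Maff, 90 bases from the transcript end: ctcccagagtTTATTTATTttctgacttca

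Neither Maff nor Fosl2 was called, Fos was too low to be tested, and the part of these elements in the levels was not tested. In the promoters of RefSeq (GRCm38.p6, 250 bases before to 50 after the start), which held windows for 8 of the 10 members, TGAGTCA was found in 0 on either strand, against 5.20% of 32851 promoters. The response element TGACGTCA was found in Maff (1.79% of all promoters), and TGACATCA, which differs from it by a base, in Jun and Maff (3.62%). They are shown because Jun and Maff did not overlap between the groups, with the element in capitals:

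Jun, chr4:95052248-95052277, reverse strand: agcctcggggTGACATCAtgggctattttt

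Maff, chr15:79347481-79347510, forward strand: gctggggcggTGACGTCActgcatgactgg

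Maff, chr15:79348347-79348376, forward strand: tggagccatgTGACATCAgtgtttgttcct

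The element of Jun begins 45 bases before the start, and those of Maff 29 and 45 bases before the starts of separate transcripts. Whether these matches bear on the levels of Jun and Maff was not tested. Junb, which also did not overlap between the groups, had neither TGACGTCA nor TGACATCA in its window. A match is a description of the letters and not of binding.

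Genes that work with AP-1 or upstream and downstream of it were read from the same test. The lists were chosen with earlier results of these data known. Among all genes tested, 22.1% were lower and 22.8% higher, the shares to set beside each count below. Of 18 tested bZIP partners outside the 10 genes, 3 were lower and 3 higher, with a median log2 fold change of -0.095. The small Maf gene Mafk, a close relative of Maff, fell from 34.8 ± 1.84 to 8.47 ± 3.48 CPM (-2.02, adjusted p = 2.10e-05), Atf5 fell by 1.22 (adjusted p = 7.26e-05), and the cyclic AMP response factor gene Crem rose by 1.91 (adjusted p = 1.24e-04). Of 36 other immediate early genes tested, 8 were lower and 6 higher, with a median of 0.12. The pseudokinase gene Trib1 and the growth arrest gene Gadd45g fell (-1.82 and -1.58, adjusted p = 2.11e-06 and 3.12e-06), and the survival gene Mcl1 rose (1.51, adjusted p = 2.43e-05).

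On the route from MAP kinases and serum response factor to AP-1, 9 of 31 tested genes were lower and 2 higher. The shares over all genes tested were 22.1% and 22.8%, and the median of the list was -0.24. Mapk7, which encodes ERK5, fell from 134 ± 28.8 to 32.2 ± 5.37 CPM (-2.05, adjusted p = 5.28e-07), and Mapk12, which encodes p38γ, fell by 2.27 (adjusted p = 0.00172). Map2k1, which encodes MEK1, rose from 176 ± 25.8 to 563 ± 180 CPM (1.68, adjusted p = 5.18e-06). With the length correction this split turned to 5 lower and 7 higher. Among 14 tested genes for MAP kinase feedback and repressors of AP-1 or Egr, 3 were lower and 4 higher, with a median of -0.23. The ERK antagonist gene Spry2 and the phosphatase gene Dusp14 rose (1.07 and 1.65, adjusted p = 8.84e-04 and 0.00253), and Nab1, a corepressor of Egr1, fell (-0.96, adjusted p = 0.00241).

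Of 20 tested textbook AP-1 target genes, 6 were lower and 6 higher, against 22.1% and 22.8% of all genes tested. Their median was 0.17. The collagenase gene Mmp13 and the stromelysin gene Mmp10 rose (2.41 and 3.73, adjusted p = 2.80e-05 and 6.54e-09), and the chemokine gene Ccl2 fell (-2.15, adjusted p = 3.09e-07). Mmp10 held 9.01, 6.96 and 15.6 CPM in wt LFs and 98.8, 158 and 180 in the TKS5 KO libraries. Of the 16 heat shock genes, chaperones induced by stress, 2 were lower and 3 higher, with a median of -0.12. Hsp90aa1 fell by 1.60 (adjusted p = 8.15e-06), Hspe1 rose by 1.55 (adjusted p = 1.03e-05) and Hsph1 by 0.66 (adjusted p = 0.00972). Hsph1 was not called without wt replicate 3, with library totals alone or in the authors' normalized counts. All adjusted p-values of these lists are those of edgeR over all genes tested, and library totals alone shifted all 6 lists towards lower calls.

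**Figure D5:**
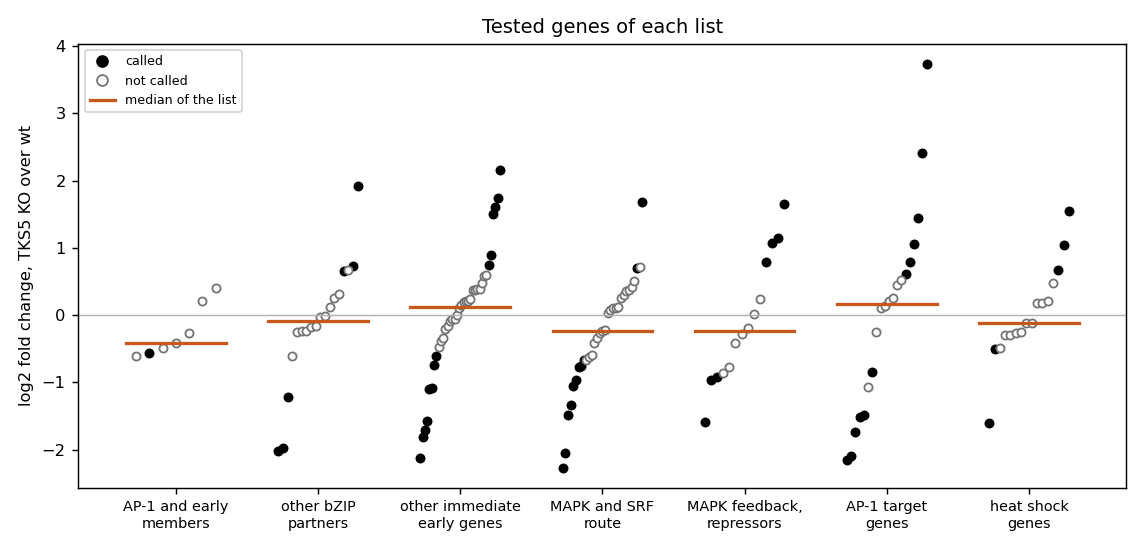
Log2 fold change (y axis) in the libraries labelled TKS5 KO over wt of the tested genes in 7 lists, ordered by value within each list, with filled points for called genes and an orange bar at the median. The 7 tested members lay between -0.61 and 0.41, and the AP-1 target genes between -2.15 and 3.73.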

How the data were processed

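Raw counts per library were deposited by the authors. Reads had been trimmed (Trim Galore), mapped to GRCm38 (HISAT2, followed by Bowtie2) and counted over 3'UTR regions of no less than 300 bases with 50 flanking bases, then added up by gene. They also deposited normalized counts, used here as a score, which they made with EDASeq and rounded. Neither the strand setting nor the options of EDASeq are given in the sources used here.

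The main test was that of edgeR 4.0.16 under R 4.3.3 on the raw counts (TMM, filterByExpr, robust quasi-likelihood F test, Benjamini-Hochberg adjustment over 10346 genes). Called genes passed an adjusted p of 0.05 and changed 1.2-fold or more. The common dispersion was 0.0429. CPM were computed on TMM-scaled library sizes. Standard errors are those of the fit, which moves each gene's spread between libraries towards that of all genes. Exact two-sided permutation tests compared single values, with 0.1 as the smallest p. Ratios within a library used a pseudocount of 0.5. Of 55364 listed genes, 55104 were matched to symbols and transcripts of GENCODE M21. The members and lists were chosen with earlier results of these data known. Named were the members, Sh3pxd2a, overlapping genes, markers, and in each of 6 lists the 3 genes with the smallest adjusted p among those with 10 or more counts on average.

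Alternatives were scaling by RLE, by the upper quartile and by library totals, DESeq2 1.42.0, no filter, at least 10 counts in every library, the authors' normalized counts with limma 3.58.1 (log2 of the value plus 1), limma-voom, no fold change threshold, a replicate block, a loess correction for transcript length (span 0.5, prior count 2), and each library left out. Dropping the fold change threshold, counted among the 20 alternatives, repeats the main estimates and can alter only the calls. A GC correction and Atf3 without both filter and wt replicate 3 were chosen after seeing the data. The test was checked on simulated counts. It recovered 48.4% of genes changed by 1 on the log2 scale and 100% of those changed by 2, with 6.49% of calls false. Smaller changes, such as those estimated for all tested members, were not simulated. Plots were made with matplotlib 3.10.9. The study's combination of several tests was not used here.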

Additional observations from a re-analysis of the deposited data

How the results depend on the processing

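The number of genes called lay between 3705 and 5306 over the alternatives and between 3853 and 4595 with single libraries left out, against 4642. The number of members called lower, 1 with TMM scaling, was 0 with DESeq2, RLE scaling and the GC correction with and without a replicate block, 2 with no filter and in the authors' normalized counts, 3 with the length correction with and without a replicate block, and 5 with library totals (Fosl1, Junb, Jund, Egr1 and Maff). It ran from 0 to 1 as single libraries were left out. Members called higher, 0 with TMM scaling, numbered 1 with the length correction (Fosl2) and 1 with the GC correction (Jun), each with and without a replicate block, and 0 with every library left out in turn. The replicate block alone gave 4668 genes and left Junb called (-0.53, adjusted p = 0.0491). No pairing by replicate number was detected, as the deviations of same-numbered libraries correlated at -0.0010, -0.064 and 0.082. Those of libraries with different numbers correlated at -0.10 to 0.097. With 3 libraries per group, these correlations cannot decide whether the libraries were paired. Over the 7 tested members and 20 alternatives, 4 estimates changed sign: Fosl2 (-0.22) and Jun (-0.017) with library totals, and Egr1 with the length correction (0.0032) and with that and a replicate block (0.017). Sh3pxd2a (-0.13) and Ccdc85b (-0.27) changed sign with library totals. Sh3pxd2a was called higher with the length correction (1.00) and with that and a replicate block (0.99, adjusted p = 6.51e-04). A further 13 estimates gained a call and 9, all of Junb, lost it. The causes were not tested. The differences of the 10 ratios moved by less than 1 SD with a pseudocount of 2 or with any library left out. Depth limited Fos, Fosb and Atf3, at 26 counts or fewer in every library.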
